A study of Mus musculus with 8 samples.

Results

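Kcne3 Ptn cells are a group of mostly capillary endothelial cells (ECs) of mouse mammary tumours that carry RNA of at least 3 of 6 marker genes. The 6 include the potassium channel subunit gene Kcne3 and the growth factor gene Ptn. They were chosen by measured values in 8 single-cell RNA libraries. A cell entered the group if it had UMIs (unique molecular identifiers, each counting 1 RNA molecule) of at least 1000 genes and of Pecam1, the CD31 gene, and of at least 3 of the 6 markers Kcne3, Ptn, Emid1, C1qtnf6, Enho and Slco2a1. It also had to hold fewer than 4 of the tip cell genes Pgf, Adm, Apln, Slc16a3, Trp53i11 and Cxcr4, and fewer than 4 of Kit, Bmp2, Nos2, Dapk2, Fscn1 and Adam19, called immature capillary genes here. It held fewer than 2 of the venous genes Ackr1, Selp, Cysltr1 and Masp1, and fewer than 2 of the mitotic genes Mki67, Top2a and Birc5. The rule was met by 956 of the 8204 cells (11.7%), or 15.4% of the 6222 cells with at least 1000 genes and Pecam1. The values of these 26 genes follow in part from the choice and are given as description, with no test.

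The libraries came from live CD31+ ECs sorted from mammary tumours 3 h after an intratumoural injection, in 4 groups of 2 libraries: spontaneous tumours after PBS, spontaneous tumours after 3'3'-cGAMP, implanted tumours after PBS and implanted tumours after 3'3'-cGAMP. cGAMP is a cyclic dinucleotide that activates STING, a sensor of the innate immune system that switches on interferon genes. The spontaneous tumours grew in MMTV-PyMT females, in which a mammary tumour virus promoter drives the polyoma middle T oncogene in mammary epithelium, and per the study's methods treatment began at 9 weeks of age. The implanted tumours grew from cultured MMTV-PyMT tumour cells placed in the mammary fat pad of female hosts 8 to 9 weeks old. Per the methods the injection held 14 µg of cGAMP in 70 µl of PBS, the PBS groups received the same volume, and each group had 2 mice. The labels give all mice as adult and of strain c57bl/6, while the methods name FVB for both models, and the strain was not settled here. Both models share the same oncogene, and the host of the implanted tumour does not carry it.

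Tumour capillaries are lined by ECs in several states. Tip cells lead new sprouts, immature or remodelling capillary cells follow behind, and capillary cells that have settled around a lumen deposit basement membrane and exchange fluid and solutes with the tissue. KCNE3 is an accessory subunit that changes the gating of KCNQ1 and other voltage-gated potassium channels. Pleiotrophin, the product of Ptn, is a heparin-binding growth factor that signals through syndecans, integrin αvβ3 and receptor-type phosphatases. The carrier encoded by Slco2a1 takes prostaglandins up into the cell. Emid1 encodes a secreted protein with an EMI and a collagen domain, C1qtnf6 a C1q/TNF-related secreted protein, and Enho the peptide adropin.

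The deposited tables held 654 to 2025 cells and 7863535 to 16506086 UMIs per library. Kcne3 Ptn cells numbered 154 and 116 in spontaneous PBS, 97 and 99 in spontaneous cGAMP, 141 and 172 in implanted PBS, and 109 and 68 in implanted cGAMP libraries. Their median UMIs per cell were 11351.5 to 20420.5 by library, with 15926152 UMIs in all. Library implanted cGAMP 1 stood apart with a median of 2014 UMIs over all of its cells, although its Kcne3 Ptn cells were as deep as those of the other libraries. A total of 7 barcodes occurred in more than 1 library, which touches 14 cells of the series. The median share of mitochondrial UMIs in Kcne3 Ptn cells was 4.16% to 4.60% in the PBS libraries and 2.27% to 3.04% in the cGAMP libraries. The 2 libraries of a group differed by a median of 0.17 to 0.25 on the log2 scale over genes.

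The label of a capillary cell did not hold for all of these cells, and for the others it rests on few genes. All 956 had UMIs of at least 2 of 12 pan-endothelial genes, but so did all 5185 other ECs, and the rule asks for 1 of the 12, Pecam1. The 98 lymphatic cells described next aside, 858 cells remained. Of these, 97.1% had UMIs of Flt1, 98.4% of Plvap and 93.4% of Gpihbp1, genes of VEGF-responsive, fenestrated and capillary endothelium. In 70.2% of the 858, Flt4 of the lymphatic list was also found. Of the lipid and resting capillary lists, Gpihbp1, Cd300lg and Sparcl1 were higher than in other ECs in every library. Cd36, Fabp4, Fabp5, Meox2 and Car4 of the same lists were lower. However, 98 of the 956 cells (10.3%) held Prox1, the transcription factor that sets lymphatic identity, together with at least 1 of Lyve1, Pdpn, Ccl21a, Mmrn1 and Reln. Of these 98 cells, 93.9% had UMIs of Mmrn1 and 85.7% of Pdpn, whereas 14.3% had Flt1 and 6.12% had Kcne3. They entered the group mainly through other markers, since Ptn was found in 56.1% of them, Emid1 in 74.5% and Enho in 72.4%. They made up 4.55% and 6.90% of the Kcne3 Ptn cells in spontaneous PBS, 2.06% and 11.1% in spontaneous cGAMP, 14.9% and 11.6% in implanted PBS, and 11.9% and 23.5% in implanted cGAMP libraries. The data thus go against the name capillary for these cells, and calls of genes named below that were lost without them are given beside the results.

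RNA of genes listed as markers of other cell types was present and differed between libraries. In 292 Kcne3 Ptn cells (30.5%), UMIs of 2 or more genes of a mural, fibroblast, epithelial or immune marker list were found, most often the mural list of 10 pericyte and smooth muscle genes (17.6% of cells). The summed level of the mural list was 205 and 789 CPM (UMIs per 1000000 UMIs of a cell, averaged over the cells) in spontaneous PBS, 1514 and 768 in spontaneous cGAMP, 127 and 134 in implanted PBS, and 224 and 115 in implanted cGAMP libraries. It was thus higher in the spontaneous than in the implanted libraries after cGAMP, and the pericyte gene Rgs5 alone reached 667 CPM in spontaneous cGAMP 1. The mural list also holds Abcc9, which was higher in Kcne3 Ptn cells than in other ECs in every library. Abcc9 alone stood at 124 and 157 CPM in spontaneous PBS and 142 and 128 in spontaneous cGAMP libraries. In implanted tumours it stood at 90.3 and 81.2 CPM after PBS and 86.9 and 71.2 after cGAMP. The cells counted above can thus hold Abcc9 as 1 of their 2 mural genes, and the source of that RNA was not tested. The 4 erythroid genes summed to 247 CPM in spontaneous cGAMP 2, where 2 of 99 cells held at least 2 of them, and to at most 1.68 CPM in the other libraries. The 9 immune genes summed to 10.2 to 77.8 CPM, highest in both implanted cGAMP libraries, and Ptprc, the CD45 gene, reached at most 3.92 CPM. The part of these cells or of free RNA in the results was not tested beyond the values without them.

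A smaller share of the ECs met the rule for Kcne3 Ptn cells after cGAMP than after PBS. This is not read as a loss of Kcne3 Ptn cells. Of the cells with at least 1000 genes and Pecam1, they made up 17.7% and 20.9% in spontaneous PBS, 15.1% and 15.5% in spontaneous cGAMP, 15.5% and 16.8% in implanted PBS, and 10.7% and 12.2% in implanted cGAMP libraries. The group means were 19.3% ± 2.22, 15.3% ± 0.305, 16.1% ± 0.886 and 11.4% ± 1.05 (SD, n = 2 each). Every cGAMP library lay below every PBS library, and the closest pair, spontaneous cGAMP 2 and implanted PBS 1, both rounded to 15.5%. Over both models the share was 4.36 percentage points lower after cGAMP (exact permutation test, two-sided, 4 against 4 libraries, p = 0.0286, the smallest this design can give, and 0.0571 adjusted over 2 comparisons). Every cell was also thinned to 3000 UMIs, a depth that 34 Kcne3 Ptn cells and 474 ECs did not reach. The rule, Pecam1 included, was then applied again to the thinned cells, which left 5373 ECs. The shares were 11.7% and 10.5%, 5.83% and 5.29%, 7.61% and 8.70%, and 6.67% and 5.61% in the same order, a difference of -3.77 points (exact p = 0.0286). Without the lymphatic cells the difference was -4.28 points and the libraries overlapped (exact p = 0.114). Membership rests on detecting the markers, several of which stood lower after cGAMP. Fewer Kcne3 Ptn cells and less marker RNA per cell thus cannot be told apart. The exact tests of cGAMP against PBS rest on the same detection, thinned or not, and do not decide between them. The share was 3.50 points lower in implanted than in spontaneous tumours, which did not pass the test (exact p = 0.171).

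**Figure D1:**
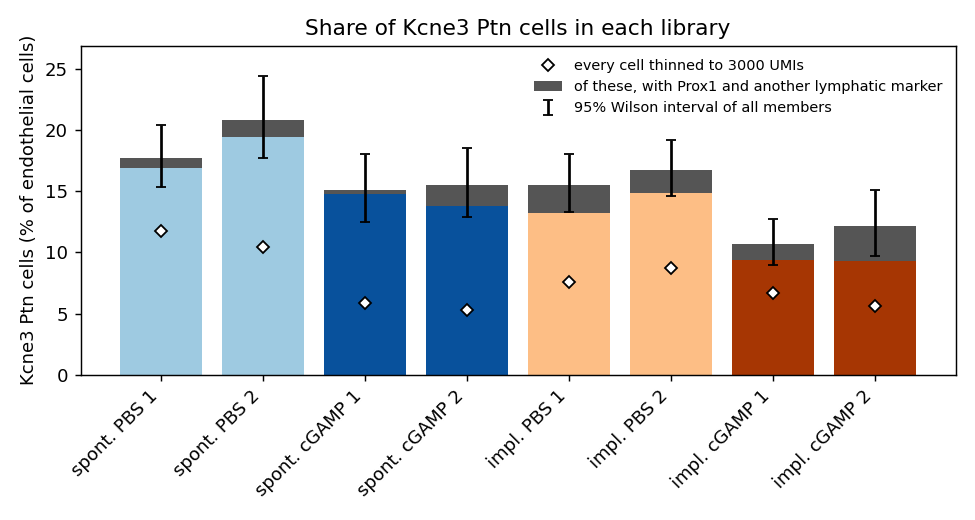
Kcne3 Ptn cells as a percentage of the ECs with at least 1000 genes and Pecam1 in each of the 8 libraries. Bars are the share with 95% Wilson intervals (counting error only), the dark top segment is the part with Prox1 and another lymphatic gene, and open diamonds are the share with every cell thinned to 3000 UMIs; the 4 cGAMP libraries lie at 10.7% to 15.5% and the 4 PBS libraries at 15.5% to 20.9%.

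The 6 markers differed in how often they were found, given as description because the rule chose the cells by detection of these genes. By detection, C1qtnf6 was found in 80.0% of Kcne3 Ptn cells, Slco2a1 in 76.6%, Emid1 in 71.0%, Ptn in 58.5%, Enho in 56.8% and Kcne3 in 53.5%. At 3000 UMIs per cell, Ptn was found in 43.0% of Kcne3 Ptn cells and 9.68% of other ECs, and Slco2a1 in 51.1% and 26.0%. Kcne3 was found in 30.5% of Kcne3 Ptn cells but in 43.2% of tip cells, so by detection it was more frequent in tip cells. Among 89 cells of other types without Pecam1, thinned to the same depth, Kcne3 was found in 1.12% and Ptn in 3.37%, but Emid1 in 22.5% and C1qtnf6 in 34.8%. C1qtnf6 and Emid1 were found in 32.2% and 27.0% of Kcne3 Ptn cells after thinning, while other ECs had 12.4% and 6.78%. Whether the cells without Pecam1 express the 2 genes themselves was not tested. Detection of either gene is thus not read as setting Kcne3 Ptn cells apart from them. Of 3721 cells that met all other conditions, 1002 held none of the markers, 1048 held 1, 715 held 2, 420 held 3, 263 held 4, 161 held 5 and 112 held all 6. The 715 cells just outside the threshold averaged 114 CPM of Kcne3, 119 of Ptn and 138 of Slco2a1, and the 420 cells just inside averaged 151, 273 and 267 CPM.

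A 3' kit counts molecules and not fragments along a gene's length, so levels are set side by side without a length correction. Ptn was the most abundant marker and stood lower after cGAMP in both models. Its mean level in Kcne3 Ptn cells was 1324 and 947 CPM in the spontaneous PBS libraries, 678 and 433 in the spontaneous cGAMP, 731 and 702 in the implanted PBS and 547 and 352 in the implanted cGAMP libraries. These levels follow in part from the rule, and with 2 libraries per group their order is given as description only. Slco2a1 showed the same order, at 649 and 533 CPM in the spontaneous PBS libraries, 414 and 316 in the spontaneous cGAMP, 489 and 368 in the implanted PBS and 292 and 206 in the implanted cGAMP libraries. Kcne3 went in different directions: it was 307 and 374 CPM in the spontaneous PBS libraries, 187 and 155 in the spontaneous cGAMP, 165 and 252 in the implanted PBS and 507 and 279.5 in the implanted cGAMP libraries. Its mean level was thus lower after cGAMP in spontaneous tumours and higher after cGAMP in implanted tumours. As descriptions, the log2 differences between cGAMP and PBS means in spontaneous and implanted tumours were -0.99 and 0.88 for Kcne3, -1.05 and -0.71 for Ptn, -0.70 and -0.79 for Slco2a1, -0.43 and 0.23 for Emid1, -0.36 and -0.50 for Enho, and -0.14 and -0.04 for C1qtnf6. Averaged over libraries, Kcne3 stood at 279 CPM in Kcne3 Ptn cells, 459.7 in tip cells and 98.4 in other ECs. Other ECs are the 5185 cells with at least 1000 genes, Pecam1 and 3 of Cdh5, Tie1, Egfl7, Cldn5, Esam and Eng that are not in the group. Tip cells are the 482 cells with at least 4 tip genes.

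**Figure D2:**
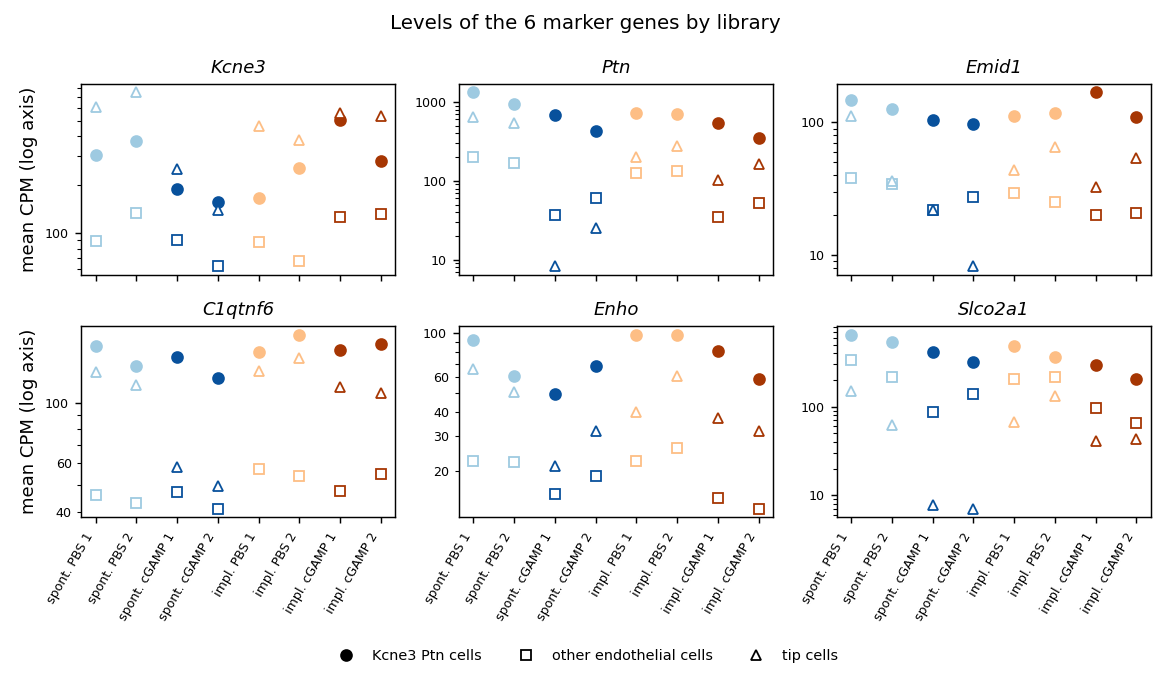
Mean level of each of the 6 markers (CPM, log axis) in each library, with filled circles for Kcne3 Ptn cells, open squares for other ECs and triangles for tip cells. Ptn and Slco2a1 lie above both other groups in every library by the choice of cells, whereas the tip cells reach a mean of 459.7 CPM for Kcne3 against 279 in Kcne3 Ptn cells.

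The channel that KCNE3 is best known to accompany was present at a low level. Kcnq1, the pore-forming subunit, stood at 61.4 and 49.7 CPM in spontaneous PBS, 57.3 and 60.3 in spontaneous cGAMP, 33.9 and 48.0 in implanted PBS and 56.5 and 52.4 in implanted cGAMP libraries. It was higher than in other ECs in all 8 libraries, by a mean of 1.06 on the log2 scale. The implanted PBS libraries lay below the 6 others. Of the other channel genes listed, Kcnj2, an inward rectifier, fell after cGAMP in spontaneous tumours from 45.9 and 75.2 to 18.3 and 30.4 CPM (log2 fold change -1.28 ± 0.32, adjusted p = 0.0361, limma, where ± is the SE here and below). It was not called without library spontaneous PBS 2 (0.288), spontaneous cGAMP 1 (0.322), implanted PBS 1 (0.0587) or implanted PBS 2 (0.0592), with the adjusted p then in brackets here and below. Kcnq5 gave 3 UMIs in all. For pleiotrophin, the phosphatase Ptprb was the most abundant of the possible receptors, at 568 to 989 CPM, followed by Ncl (330 to 498), which encodes nucleolin, Sdc3 (58.3 to 108), Itgb3 (31.4 to 106) and Itgav (27.5 to 55.7). Ptprz1 and Alk, which encode 2 further receptors, had 0 UMIs, which allows up to 0.188 CPM over all Kcne3 Ptn cells, for counting error only. For prostaglandins, Ptges3 was at 147 to 189 CPM, Ptgs1, the constitutive cyclooxygenase, at 15.3 to 80.7 and the exporter Abcc4 at 14.3 to 39.3, whereas the inducible cyclooxygenase Ptgs2 had 8 UMIs in all and Ptgds 0.

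Beyond the genes of the rule, Kcne3 Ptn cells carried more RNA of basement membrane genes than other ECs and less of several lipid capillary genes, NF-κB targets and antigen presentation genes. Of 3499 genes at 50 CPM or more in either population, 499 were higher in Kcne3 Ptn cells in every library and 276 were lower in every library, with 19 higher and 37 lower by at least 1 on the log2 scale. These are descriptions: the cells were picked by RNA content from the same libraries. Kcne3 Ptn cells were also deeper than other ECs in every library. Median UMIs per cell were 11351.5 to 20420.5 by library against 8294.5 to 15198, and the part of depth in these differences was not tested. The largest mean difference was that of Ramp3, which makes the calcitonin receptor-like receptor respond to adrenomedullin, at 136 to 199 CPM against 26.9 to 68.7, a mean log2 difference of 2.18. It was followed by the transmembrane collagen Col13a1 (1.71), the transcription factor Maf (1.45), the ubiquitin ligase Hecw2 (1.40), the endothelin receptor Ednrb (1.28), Palm (1.23), the nitric oxide synthase trafficking protein Nostrin (1.16), Igfbp3 (1.16) and Sema6d (1.11). Igfbp5 (1.07), the lymphatic growth factor receptor Flt4 (1.07), Kcnq1 (1.06), the protease Adamts5 (1.06) and Abcc9 (1.04) were also among the 15 highest.

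The lowest genes were Glycam1, a sulphated ligand of L-selectin, with a mean log2 difference of -4.36, the ubiquitin-like Ubd (-2.81), the vasoconstrictor precursor Edn1 (-2.34), Cd14 (-2.15), Vwf (-2.10), which encodes von Willebrand factor, the adhesion molecule Vcam1 (-2.02), the histone gene Hist1h2ap (-1.89), Lgals3 (-1.66), Spint2 (-1.65) and the metallothionein Mt1 (-1.60). Venous and dividing cells, and cells with at least 4 tip or immature capillary genes, were left out by the rule and stay among the other ECs. The immature capillary cells averaged 533 CPM of Ubd and 219 of Vcam1, against 56.7 and 61.6 in Kcne3 Ptn cells. The part of the cells left out by the rule in these differences was not tested. Without the lymphatic cells in both populations, Adamts5 was higher in 6 and Igfbp5 in 7 of 8 libraries, and Glycam1 was lower in 7 of 8. Maf, Flt4, Igfbp5 and Adamts5 were themselves higher in the lymphatic than in the other Kcne3 Ptn cells.

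The counts by list stand beside 499 higher and 276 lower in every library of all 3499 genes. By list, 11 of 13 basement membrane genes were higher in every library and 0 lower (median difference 0.50 against 0.02 over all 3499 genes), among them Col4a1, Col4a2, Lama4, Nid1, Hspg2 and Sparc. Of 16 VEGF, angiopoietin and Notch genes, 6 were higher (Kdr, Flt1, Flt4, Nrp1, Notch1 and Dll4) and 1, Jag1, was lower. Of 9 genes of angiogenic endothelium 5 were higher (Insr, Mcam, Cd34, Igfbp3 and Vwa1) and 0 lower. Of 5 lipid capillary genes, Gpihbp1, which docks lipoprotein lipase, was higher and Cd36, Fabp4, Fabp5 and Meox2 were lower. Of 22 interferon-γ and antigen presentation genes, 9 were lower and 0 higher (median -0.40), and of 7 NF-κB targets 5 were lower, Nfkbia, Relb, Icam1, Vcam1 and Tnip1, and Tnfaip2 was higher.

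**Figure D3:**
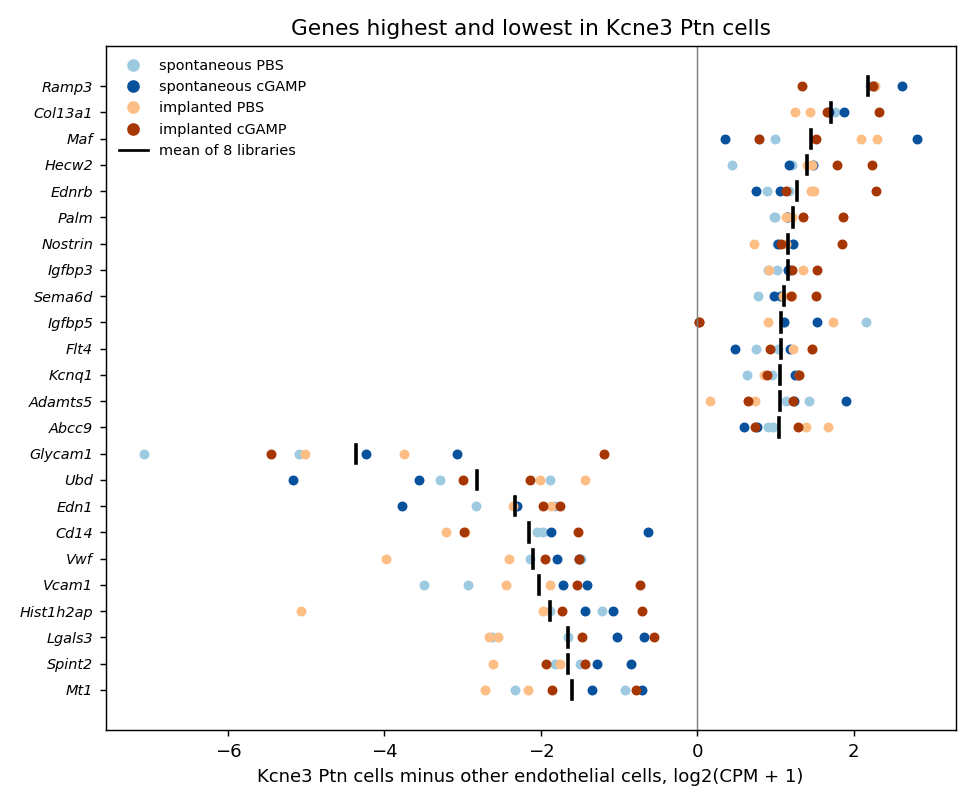
Difference between Kcne3 Ptn cells and other ECs, log2(CPM + 1), for 14 of the 15 genes with the highest and the 10 with the lowest mean difference outside the rule. Each point is 1 of 8 libraries, coloured by group, and the bar is their mean; all points of a gene lie on 1 side of 0, from 2.18 for Ramp3 to -4.36 for Glycam1 by mean.

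Against tip cells, 437 of 3559 genes were higher and 357 lower in every library. The genes furthest below tip cells were the hypoxia-induced Bnip3 (mean log2 difference -2.76), Lcp2 (-2.65), Angpt2 (-2.34), which encodes the Tie2 ligand angiopoietin-2, Adamts7 (-2.05), Prss23 (-1.84), Thbs1 (-1.82) and the matricellular Ctgf (-1.81), among the 10 lowest. Angpt2 averaged 88.0 CPM in Kcne3 Ptn cells and 438 in tip cells. Against the 412 immature capillary cells, the amino acid oxidase Il4i1 (-3.22), Ubd (-3.17), Igf1 (-2.17) and Vcam1 (-2.03) were the lowest, and Stmn2 (3.51), Vegfc (2.61), Itgb4 (2.26) and Dkk2 (2.18) were among the 10 highest. The genes furthest above tip cells, Ccl21a, Mmrn1, Lyve1, Fxyd6 and Prox1, were also among the 20 that most favoured the 98 lymphatic cells. In the other 858 Kcne3 Ptn cells these genes averaged 58.2, 7.17, 13.0, 10.3 and 3.87 CPM, in that order. Tip cells averaged 36.9, 6.31, 21.9, 4.46 and 3.85 CPM.

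cGAMP raised interferon and antigen presentation genes in Kcne3 Ptn cells of spontaneous tumours. Of 6976 genes tested outside the rule, 331 changed (4.74%), of which 243 rose (3.48%) and 88 fell (1.26%), by limma on log2(CPM + 1) at an adjusted p under 0.05. Ccl5, a chemokine for T cells and monocytes, had 0 UMIs in both PBS libraries and 766 and 1025 CPM in the cGAMP libraries. Summed over cells, 4087 UMIs after cGAMP stood against the 3 UMIs that a count of 0 over both PBS libraries allows, which per UMI of the group was at least 1372-fold higher. Ifit3, an interferon-induced antiviral gene, stood at 1.14 and 2.80 CPM after PBS and 291 and 342 after cGAMP (log2 fold change 6.79 ± 0.28, adjusted p = 1.98e-08). This is a UMI ratio of 112 with a counting interval of 62.5 to 225. Its near-identical neighbour Ifit3b behaved alike (6.38 ± 0.22), and reads cannot be divided with certainty between these genes. Irf7, the transcription factor that amplifies interferon production, stood at 9.94 and 22.1 and 1349.9 and 1242 CPM (6.35 ± 0.30, adjusted p = 3.94e-08). Ifit1 (5.84 ± 0.33), Ifit2 (5.83 ± 0.35) and the CXCR3 ligands Cxcl10 (5.23 ± 0.44) and Cxcl9 (5.09 ± 0.23) completed the 8 largest, with adjusted p from 2.02e-09 to 7.29e-06 and each called under all 18 alternatives. Without library spontaneous PBS 1, spontaneous PBS 2, spontaneous cGAMP 1 or spontaneous cGAMP 2 the number of rises was 181, 222, 177 and 174 and that of falls 37, 33, 22 and 60. Without implanted cGAMP 1 or 2 the falls numbered 156 and 154, and with at least 4 markers they numbered 37 beside 196 rises. The number of falls thus rests on single libraries and on the marker threshold more than that of rises.

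The 8 largest falls were smaller. The mitochondrially encoded mt-Nd4l stood at 288 and 294 CPM after PBS and 110.2 and 110.2 after cGAMP (log2 fold change -1.39 ± 0.11, adjusted p = 6.32e-06). The taurine transporter Slc6a6 stood at 179.7 and 251 and 89.8 and 97.3 CPM (-1.18 ± 0.20, adjusted p = 0.00253). Both were called under all 18 alternatives. Stmn2, a microtubule regulator, fell by 1.51 (adjusted p = 0.00964), and the call was lost without spontaneous PBS 1 (0.103) or spontaneous cGAMP 1 (0.110). Ifi27 fell by 1.44 (adjusted p = 0.00673, lost without spontaneous PBS 1 (0.0804) or spontaneous cGAMP 2 (0.0643)) and Ctgf by 1.20 (adjusted p = 0.0104, lost without spontaneous PBS 2 (0.126) or spontaneous cGAMP 2 (0.114)). Cthrc1 (-1.25, adjusted p = 0.0283) was lost without spontaneous PBS 1 (0.132), spontaneous PBS 2 (0.152) or spontaneous cGAMP 1 (0.271). Pgm2l1 (-1.18, adjusted p = 0.0274) was lost without spontaneous PBS 2 (0.218), spontaneous cGAMP 1 (0.189) or spontaneous cGAMP 2 (0.0898). AU021092 (-1.49, adjusted p = 0.0373) was lost without spontaneous PBS 1 (0.112), spontaneous PBS 2 (0.223), spontaneous cGAMP 2 (0.250), implanted PBS 1 (0.0529) or implanted PBS 2 (0.0535). Without cells that held 2 markers of another type, Stmn2 (0.126), Cthrc1 (0.103), Pgm2l1 (0.0846) and AU021092 (0.179) were not called. The fall of mt-Nd4l and of 8 further mt- genes moved with the lower mitochondrial share of the cGAMP libraries given above, and the part of that share in the result was not tested.

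By list, 27 of 28 type I interferon genes rose and 0 fell (median log2 change 3.95 against -0.06 over all genes tested), and all 23 interferon-γ and antigen presentation genes tested rose (median 2.72). In the latter, H2-Aa, a class II antigen-presenting chain, went from 2 UMIs over both PBS libraries to 122 after cGAMP, a ratio of 61.4 (16.6 to 513). Cd74, the class II invariant chain, went from 8.53 and 5.50 to 245 and 115 CPM (4.43 ± 0.34, adjusted p = 2.88e-06). Members of the H2, Gbp, Irgm and Oas families are similar to each other, so the values of single members are uncertain. Of 7 chemokine genes 4 rose (Ccl2, Ccl5, Cxcl9 and Cxcl10) and 0 fell. The calls for Ccl2, Nlrc5 and Csf1 were lost without at least 1 single library (adjusted p of up to 0.215). Ccl2 was also not called without the lymphatic cells (0.248). Of 16 NF-κB targets 3 rose, Vcam1 (4.24 and 7.87 to 40.3 and 40.8 CPM, 2.61 ± 0.41, adjusted p = 0.00158), Csf1 and Il6, which was not called without spontaneous PBS 2 (0.186), spontaneous cGAMP 1 (0.0807), spontaneous cGAMP 2 (0.207), implanted PBS 1 (0.0514) or implanted PBS 2 (0.0520). Of 14 cell death genes 1 rose, Mlkl, the effector of necroptosis (20.1 and 16.9 to 61.1 and 47.2 CPM, 1.49 ± 0.27, adjusted p = 0.00501), and of 14 survival and PI3K-AKT genes 0 passed the test. Mlkl was not called without spontaneous cGAMP 1 (0.0786).

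Few genes of endothelial function passed the test in spontaneous tumours, where 4.74% of all genes tested were called. Egfl7, which encodes an endothelial matrix protein, rose from 1433 and 1316 to 2019 and 1988 CPM (0.54 ± 0.10, adjusted p = 0.00402), as 1 of 11 pan-endothelial genes. Egfl7 was not called without spontaneous PBS 2 (0.0697) or spontaneous cGAMP 1 (0.0642). Of 16 VEGF, angiopoietin and Notch genes, Nrp1, a VEGF co-receptor, fell from 587 and 647 to 419.9 and 417 CPM (-0.56 ± 0.11, adjusted p = 0.0113). Nrp1 was not called without spontaneous PBS 2 (0.113), spontaneous cGAMP 1 (0.0912) or spontaneous cGAMP 2 (0.0896). Of 13 basement membrane genes 1 rose, Agrn, and 1 fell, Col4a1 (from 4742 and 4952 to 3791 and 3689.5 CPM, -0.37 ± 0.09, adjusted p = 0.0422). Col4a1 was not called without spontaneous PBS 1 (0.184), spontaneous PBS 2 (0.267), spontaneous cGAMP 1 (0.237), spontaneous cGAMP 2 (0.245), implanted PBS 1 (0.0649) or implanted PBS 2 (0.0643). In the other lists Cd36 (of 6 lipid capillary genes) and Fosb (of 9 immediate early genes) rose, and Fbln5 (of 7 arterial genes), Ncl (of 6 pleiotrophin system genes) and Abcc4 (of 4 prostaglandin genes) fell. The calls for Agrn, Cd36, Fosb, Fbln5, Ncl and Abcc4 were lost without at least 1 single library (adjusted p of up to 0.332). Fbln5 was also lost without the lymphatic cells (0.155), and Fbln5 (0.395), Cd36 (0.218), Abcc4 (0.0676), Agrn (0.0526) and Ncl (0.0863) without cells that held 2 markers of another type. No gene passed in the lists for resting capillary (5 tested), angiogenic endothelium (9), junction and barrier (7), shear and nitric oxide (5), BMP and TGF-β (10), glycolysis and hypoxia (10), heat shock (6) and DNA replication (3), nor among the mural (8), lymphatic (7), fibroblast (3) and epithelial (3) markers, by limma. Nearest to the threshold came Insr, the insulin receptor gene (-0.40, adjusted p = 0.0761), Esm1 (-1.45, adjusted p = 0.0817) and Aldoa (0.49, adjusted p = 0.0972), while the mural Pdgfrb had 3.24 (adjusted p = 0.260), with 1 and 126 UMIs after PBS and 222 and 119 after cGAMP. No immune or erythroid marker reached the level for testing.

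Promoters of the risen genes held the letters of the interferon-stimulated response element more often than promoters of all genes. The motif GAAANNGAAA was searched on both strands from 250 bases before to 50 bases after the start of each gene, in RefSeq sequence of build GRCm38.p6. It occurred in 4.29% of the 5523 tested genes with a window and 3.99% of all 27025 genes, against 27.0% of 189 that rose and 3.64% of 55 that fell in spontaneous tumours, and 12 of 21 in the type I interferon list. The promoters of Ifit1 (chr19:34640639-34640888, + strand), Ifit3 (chr19:34583279-34583528, + strand) and Cxcl10 (chr5:92348890-92349139, - strand) are shown over the 250 bases before the start, because these genes were among the 8 that rose most and hold the motif, which stands in capitals.
Ifit1: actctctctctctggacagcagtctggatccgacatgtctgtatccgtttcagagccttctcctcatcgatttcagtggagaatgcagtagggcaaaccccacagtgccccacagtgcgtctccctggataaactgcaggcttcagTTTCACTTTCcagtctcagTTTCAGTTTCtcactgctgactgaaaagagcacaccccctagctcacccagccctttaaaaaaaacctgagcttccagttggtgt
Ifit3: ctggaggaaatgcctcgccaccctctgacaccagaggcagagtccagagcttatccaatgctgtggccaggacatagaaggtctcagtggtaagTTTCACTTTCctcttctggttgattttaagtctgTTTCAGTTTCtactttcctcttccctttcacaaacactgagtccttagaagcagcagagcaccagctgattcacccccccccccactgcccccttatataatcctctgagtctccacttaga
Cxcl10: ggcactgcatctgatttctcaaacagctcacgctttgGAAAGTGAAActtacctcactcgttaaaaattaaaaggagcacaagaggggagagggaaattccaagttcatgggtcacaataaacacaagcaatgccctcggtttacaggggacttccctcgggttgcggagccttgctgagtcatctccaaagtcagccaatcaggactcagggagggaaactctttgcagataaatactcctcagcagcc
The sequences are written in the direction of the gene. In Ifit1 the 2 matches, on the strand opposite to the gene, begin 104 and 85 bases before the start. In Ifit3 the 2 matches, also on the opposite strand, begin 156 and 122 bases before it. In Cxcl10 the single match lies 213 bases before it on the gene's own strand. Irf7, Ifit2 and Cxcl9 rose as strongly and had no match in their windows, nor had Kcne3, Ptn or Ramp3.

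In implanted tumours cGAMP changed more genes of Kcne3 Ptn cells, 1057 of 6976 (15.2%), of which 469 rose (6.72%) and 588 fell (8.43%). Ccl5 went from 2.87 and 5.38 CPM after PBS to 1217 and 692 after cGAMP (log2 fold change 7.53 ± 0.29, adjusted p = 4.54e-08). Slfn4, a Schlafen gene of interferon-treated cells, went from 3.33 and 2.30 to 105 and 118 CPM (4.90 ± 0.44, adjusted p = 2.12e-05). Oasl1, an oligoadenylate synthetase-like gene, went from 9.62 and 6.37 to 155 and 213 CPM (4.37 ± 0.27, adjusted p = 1.36e-06). Phf11b (4.29 ± 0.34), the complement gene C2 (4.13 ± 0.41), Irf7 (4.07 ± 0.30), the exonuclease Isg20 (3.97 ± 0.21) and Ifit3b (3.97 ± 0.22) completed the 8 largest rises, with adjusted p from 4.54e-08 to 4.79e-05. All 8 were called under all 19 alternatives. The number of calls was 444 without implanted PBS 1 and 436 without implanted PBS 2. Median-of-ratios scaling moved the median change over all genes from -0.11 to 0.02 and the share of calls that rose from 44.4% to 65.8% of 928 calls. The balance of rises and falls thus depends on the scaling, and changes below are to be read against that shift.

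The 8 largest falls in implanted tumours were also called after scaling. Rbp7, a retinol-binding protein of microvascular endothelium, went from 729.7 and 838 to 228 and 117 CPM (-2.25 ± 0.25, adjusted p = 1.00e-04). Stmn2 went from 262 and 339 to 103 and 44.5 CPM (-2.12 ± 0.30, adjusted p = 5.83e-04). Stmn1, its relative, went from 131 and 116 to 29.1 and 30.4 CPM (-2.02 ± 0.25, adjusted p = 2.22e-04). Ifi27 (-2.21 ± 0.27), Sox11 (-2.13 ± 0.32), Gas6 (-1.90 ± 0.24), a ligand of TAM receptors, and Esm1 (-1.88 ± 0.42), a proteoglycan of sprouting endothelium, were also among the 8, whose adjusted p ran from 1.00e-04 to 0.0109. Esm1 was lost without implanted PBS 1 (0.107) or implanted cGAMP 2 (0.0659), and Sox11 was not called after thinning. In all, 10 mt- genes fell, beside the lower mitochondrial share after cGAMP.

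By list, all 28 type I interferon genes rose in implanted tumours (median 2.94 against -0.11 over all genes) and 21 of 23 interferon-γ and antigen presentation genes rose (median 1.54). The 2 type I genes with the largest change were Oas3, with 0 UMIs after PBS and 133 after cGAMP, at least 66.1-fold higher by the same allowance, and Mx1, with 9 and 277 UMIs, a ratio of 45.9 (23.8 to 101). Mx1 was not called without implanted cGAMP 2 (0.0674). Tapbp, which loads peptides on class I molecules, went from 199 and 123 to 612 and 652 CPM (2.01 ± 0.18, adjusted p = 1.88e-05). Gbp5 went from 91.6 and 31.0 to 178 and 242 CPM (1.94 ± 0.37, adjusted p = 0.00463). Of 7 chemokine genes 4 rose, among them the membrane-bound Cx3cl1 (5.07 and 5.64 to 40.0 and 48.4 CPM, 2.83 ± 0.33, adjusted p = 1.49e-04), and 2 fell, Cxcl1 and Cxcl12. Of 16 NF-κB targets 6 rose (Nfkbia, Tnfaip3, Tnfaip2, Icam1, Vcam1 and Csf1), of which Vcam1 was lost without implanted PBS 2 (0.268) or implanted cGAMP 2 (0.171), and without the lymphatic cells (0.123), and Csf1 without implanted PBS 1 (0.0609), implanted PBS 2 (0.0819) or implanted cGAMP 2 (0.0835). The calls for Nfkbia, Tnfaip3, Icam1, Cxcl1, H2-Ab1, Cd74, Gbp2, Gbp4, Irgm2, Iigp1 and Irf1 were lost without at least 1 single library (adjusted p of up to 0.264). When the lymphatic cells were left out, Csf1 (0.0514) and Cxcl1 (0.193) were not called either, whereas all 23 interferon-γ genes rose. Without cells that held 2 markers of another type, Vcam1 (0.331), Cd74 (0.0901), H2-Ab1 (0.150), Cxcl1 (0.159), Icam1 (0.0853) and Tnfaip3 (0.114) were not called. The promoter motif occurred in 18.6% of 366 genes that rose and 3.94% of 457 that fell.

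Of the cell death genes 5 of 14 and of the survival and PI3K-AKT genes 1 of 14 were called in implanted tumours, where 15.2% of all genes tested were called. Of 14 cell death genes 3 rose, Casp8, Tnfsf10, which encodes TRAIL, and Mlkl (25.0 and 27.8 to 53.1 and 98.4 CPM, 1.42 ± 0.27, adjusted p = 0.00441), and 2 BH3-only genes fell, Bad and Bmf, the last lost without implanted PBS 1 (0.168) or implanted PBS 2 (0.0686). Casp8 stood at 97.9 and 102 and 173 and 187 CPM (0.84 ± 0.13, adjusted p = 0.00155). Of 14 survival and PI3K-AKT genes 1 rose, Cflar, which encodes the caspase-8 inhibitor c-FLIP (94.4 and 95.2 to 128 and 192 CPM, 0.72 ± 0.18, adjusted p = 0.0167). Cflar was not called without implanted PBS 1 (0.0936), implanted PBS 2 (0.0912) or implanted cGAMP 2 (0.0980). The calls for Bad and Tnfsf10 were lost without at least 1 single library (adjusted p of up to 0.263). Bad was also lost without cells that held 2 markers of another type (0.208).

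Vascular genes of Kcne3 Ptn cells changed in implanted tumours as follows. Angpt2, which destabilises vessels by competing for Tie2, went from 47.2 and 10.5 to 135 and 200.2 CPM (2.81 ± 0.52, adjusted p = 0.00382). Of 13 basement membrane genes 8 fell and 0 rose (median -0.42, or -0.30 after scaling), with Col4a1 at 4639 and 4401 CPM after PBS and 3192 and 2808 after cGAMP (-0.59 ± 0.09, adjusted p = 0.00150). The other 7 were Col4a2, Lama4, Lamb1, Nid2, Hspg2, Sparc and Col15a1, and 4 of the 8 passed when cells with 2 markers of another cell type were left out. The calls for Col4a2, Lama4, Lamb1, Nid2, Hspg2 and Sparc were lost without at least 1 single library (adjusted p of up to 0.249). Itgb3, the β3 integrin subunit that pleiotrophin can bind, rose from 33.8 and 38.9 to 97.5 and 106 CPM (1.46 ± 0.17, adjusted p = 1.70e-04). Ptgs1 fell from 70.3 and 52.7 to 21.7 and 15.3 CPM (-1.69 ± 0.21, adjusted p = 2.73e-04). Cav1, the main caveolar coat protein, fell from 507 and 499 to 306 and 225 CPM (-0.94 ± 0.14, adjusted p = 8.77e-04). The stromal chemokine Cxcl12 fell from 755 and 872 to 483 and 257 CPM (-1.20 ± 0.23, adjusted p = 0.00423). F11r, the junction protein JAM-A, rose from 289 and 279.5 to 460.3 and 516 CPM (0.78 ± 0.11, adjusted p = 4.93e-04). Egfl7 rose from 1336 and 1199 to 2124 and 2119 CPM (0.74 ± 0.10, adjusted p = 2.95e-04).

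Of 9 immediate early genes 5 rose in implanted tumours (Fos, Fosb, Junb, Dusp1 and Zfp36) and 0 fell, with Dusp1 at 309 and 448 and 649 and 839 CPM (0.99 ± 0.18, adjusted p = 0.00325). In the list 2 genes rose without cells that held 2 markers of another type and 7 without the lymphatic cells. Of 6 heat shock genes 3 fell, Hspa1a (379 and 409 to 191 and 75.2 CPM, -1.71 ± 0.32, adjusted p = 0.00393), Hspa1b, lost without implanted PBS 1 (0.0587), and Hsph1. Of the 16 VEGF, angiopoietin and Notch genes, Flt1, Angpt2 and Dll4 rose and Nrp1 fell, with Flt1 lost without implanted PBS 2 (0.0621). Of 9 genes of angiogenic endothelium 3 rose (Angpt2, Mcam and Igfbp3) and 3 fell (Aplnr, Esm1 and Cd34). The remaining lists held 1 to 3 changed genes each. Of all genes tested 15.2% were called, so such small counts are not read as changes of a list as a whole. Dll4 rose and Gja4 and Fbln5 fell among 7 arterial genes. Gpihbp1 rose among 6 lipid capillary genes, and Cd300lg rose and Rgcc and Cxcl12 fell among 5 resting capillary genes. Sdc3 rose and Ncl fell in the pleiotrophin system. Nos3 rose beside Cav1 among 5 shear and nitric oxide genes, and Plat rose and Tfpi fell in the haemostasis list. Acvrl1 rose among 10 BMP and TGF-β genes, Eno1 fell among 10 glycolysis and hypoxia genes and Tyms fell among 3 DNA replication genes. Lyve1 rose among 7 lymphatic genes, where the lymphatic cells made up a larger part of implanted cGAMP 2 than of any other library, and no lymphatic gene passed without those cells. The calls for Lyve1, Fos, Fosb, Junb, Zfp36, Hsph1, Nrp1, Igfbp3, Aplnr, Cd34, Fbln5, Gpihbp1, Cd300lg, Rgcc, Sdc3, Ncl, Nos3, Plat, Acvrl1, Eno1 and Tyms were lost without at least 1 single library (adjusted p of up to 0.325). Nrp1 was also lost without the lymphatic cells (0.0503), and Gja4 (0.142), Fbln5 (0.255), Rgcc (0.0594), Tyms (0.150), Aplnr (0.0758), Cd34 (0.293), Eno1 (0.279) and Nrp1 (0.114) without cells that held 2 markers of another type. No mural (8 tested), fibroblast (3), epithelial (3) or potassium channel (3) gene passed, while Kcnj2 rose without the lymphatic cells (1.04, adjusted p = 0.0340). In the junction and barrier list 1 of 7 genes rose, and 3 did without the lymphatic cells.

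**Figure D4:**
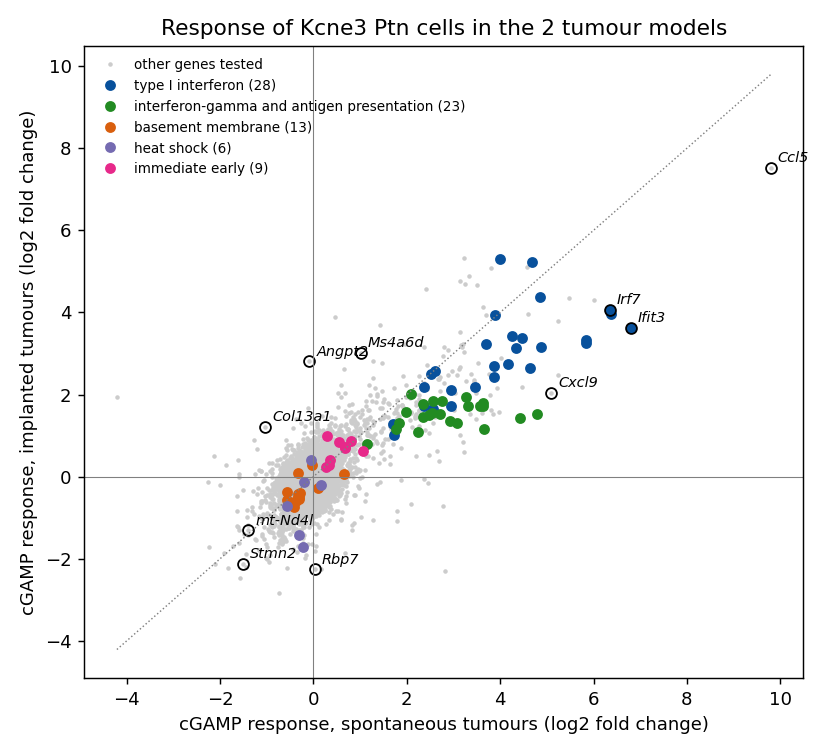
Log2 fold change after cGAMP in Kcne3 Ptn cells of spontaneous (x axis) and implanted tumours (y axis) for the genes tested, with 5 lists in colour and named genes circled; the dotted line marks equal change. Type I interferon and interferon-γ genes lie in the upper right, with medians of 3.95 and 2.72 in spontaneous and 2.94 and 1.54 in implanted tumours, and Col13a1 lies in the upper left.

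Of the genes called in each model, 271 were called in both, which is 81.9% of the spontaneous and 25.6% of the implanted calls: 212 rose in both, 58 fell in both and 1, Col13a1, went in opposite directions. The difference of the responses itself was called for 15 genes (0.215%), of which 3 were more positive (0.043%) and 12 more negative (0.172%) in implanted tumours. Col13a1, a collagen that spans the membrane at sites of cell adhesion and second of the genes that set these cells apart from other ECs, stood at 115 and 144 CPM after PBS and 56.2 and 68.8 after cGAMP in spontaneous tumours, and 100.3 and 97.3 after PBS and 239 and 223 after cGAMP in implanted tumours. It fell in spontaneous tumours (-1.04 ± 0.15, adjusted p = 9.99e-04) and rose in implanted tumours (1.22 ± 0.15, adjusted p = 2.58e-04), with a difference of 2.25 ± 0.22, adjusted p = 0.00159, called under all 18 alternatives. In other ECs its levels were 35.5 and 41.7 and 14.6 and 20.7 CPM in spontaneous and 36.5 and 40.2 and 46.8 and 70.2 CPM in implanted tumours. Rbp7 stood at 818 and 1152 CPM after PBS and 1105 and 879 after cGAMP in spontaneous tumours, and 729.7 and 838 after PBS and 228 and 117 after cGAMP in implanted tumours. Only the implanted cGAMP libraries lay low (difference -2.27 ± 0.35, adjusted p = 0.0262). Rbp7 was not called without spontaneous PBS 1 (0.0739), spontaneous cGAMP 1 (0.119), spontaneous cGAMP 2 (0.0594) or implanted PBS 1 (0.0881). Ms4a6d, a membrane-spanning gene of the MS4A family, stood at 23.5 and 36.3 CPM after PBS and 71.5 and 50.4 after cGAMP in spontaneous tumours, and 65.4 and 66.5 after PBS and 466 and 634 after cGAMP in implanted tumours. It was highest in the implanted cGAMP libraries (difference 2.01 ± 0.32, adjusted p = 0.0262). Ms4a6d was not called without spontaneous PBS 2 (0.0743), spontaneous cGAMP 2 (0.104), implanted PBS 1 (0.108) or implanted cGAMP 2 (0.0536).

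The other 12 genes were led by interferon genes whose PBS level was already higher in implanted tumours. Cxcl9 stood at 26.6 and 36.5 CPM after PBS and 1219.6 and 987 after cGAMP in spontaneous tumours, and 1028 and 555 after PBS and 3069.5 and 3161 after cGAMP in implanted tumours (difference -3.05 ± 0.33, adjusted p = 0.00278). Ifit3 stood at 37.5 and 25.1 CPM in implanted PBS libraries against 1.14 and 2.80 in spontaneous PBS libraries (difference -3.16 ± 0.40, adjusted p = 0.00980), and Cd74 at 268 and 150.5 against 8.53 and 5.50 (difference -3.01 ± 0.47, adjusted p = 0.0262). Cd74 was not called without spontaneous PBS 1 (0.0544), spontaneous PBS 2 (0.0808), spontaneous cGAMP 1 (0.0716), implanted PBS 1 (0.105) or implanted cGAMP 2 (0.0536). After cGAMP, Ifit3 reached 320.5 and 478 CPM in implanted and 291 and 342 in spontaneous tumours, which overlap. Iigp1, Ifit3b, Gm4951, Gbp3, Rsad2, Rtp4, Psmb8 and Rflnb also had the more negative difference. The calls for Iigp1, Ifit3b, Gm4951, Gbp3, Rsad2, Rtp4, Psmb8 and Rflnb were lost without at least 1 single library (adjusted p of up to 0.158). Dll4, a Notch ligand of tip and arterial cells, had the more positive one (0.94 ± 0.16, adjusted p = 0.0353), lost without spontaneous PBS 1 (0.0739), spontaneous PBS 2 (0.128), spontaneous cGAMP 1 (0.178), spontaneous cGAMP 2 (0.104), implanted PBS 1 (0.167) or implanted PBS 2 (0.0739). Without cells that held 2 markers of another type, Ms4a6d (0.214), Ifit3b (0.117), Gbp3 (0.0740), Rbp7 (0.0576) and Rflnb (0.220) were not called, and without the lymphatic cells Gm4951 (0.0850) was not.

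**Figure D5:**
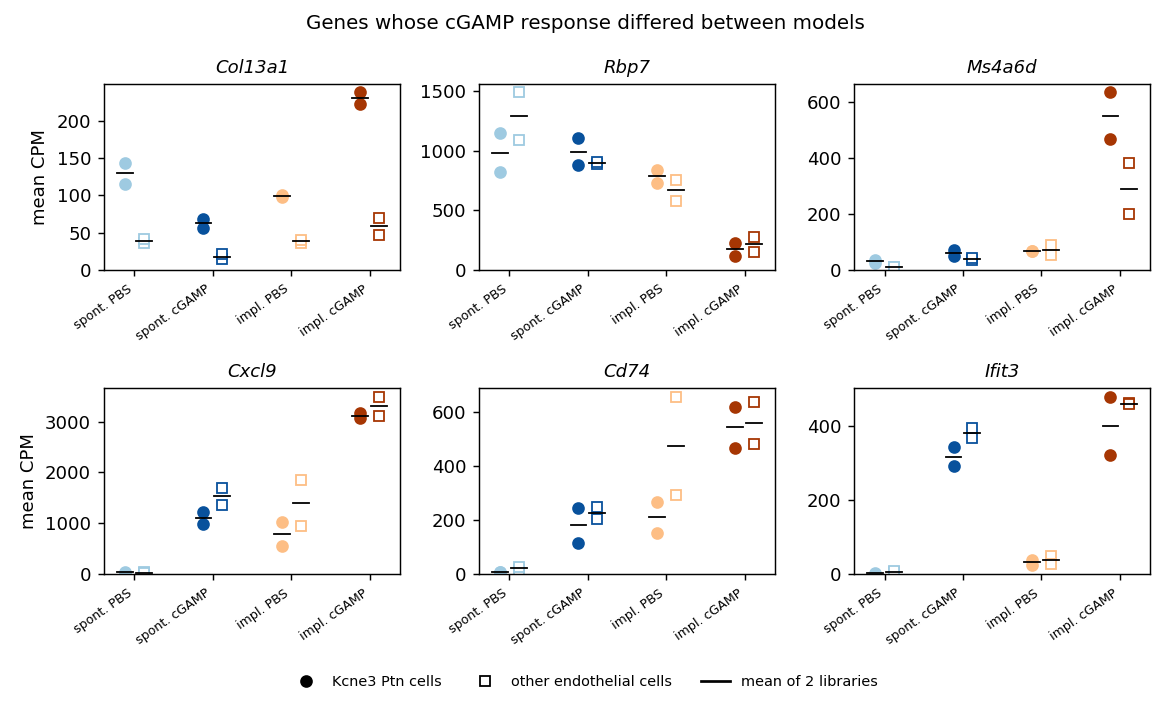
Mean level (CPM) of Col13a1, Rbp7, Ms4a6d, Cxcl9, Cd74 and Ifit3 in each library, by group, with filled circles for Kcne3 Ptn cells and open squares for other ECs. Bars are the mean of the 2 libraries of a group, for each population. Col13a1 rises only in the implanted groups, where Kcne3 Ptn cells go from 100.3 and 97.3 to 239 and 223 CPM, and Rbp7 drops there to 228 and 117 CPM.

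Whether Kcne3 Ptn cells responded differently from the other ECs of the same libraries was tested on the within-library difference of the 2 populations. No gene passed in spontaneous or implanted tumours by limma (0% of 6976 in each), with 365 and 602 genes at an unadjusted p under 0.05. For Ccl5, other ECs stood at 2062 and 1321 CPM in spontaneous and 2474 and 2072 in implanted cGAMP libraries, above the 766 and 1025 and 1217 and 692 CPM of Kcne3 Ptn cells in each library. For Irf7 the values were 1437 and 1433 and 1387 and 1509.7 CPM in other ECs and 1349.9 and 1242 and 1294 and 1565 in Kcne3 Ptn cells. With 2 libraries per group, a gene that missed the threshold here may still differ.

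After PBS alone, Kcne3 Ptn cells of implanted tumours already carried more interferon RNA than those of spontaneous tumours. This was not particular to them. In other ECs Cxcl9 stood at 1856 and 938 CPM in implanted and 32.9 and 19.4 in spontaneous PBS libraries, and Ubd at 708 and 406 against 8.82 and 5.58. Of 6976 genes 155 differed (2.22%), 108 higher (1.55%) and 47 lower (0.674%) in implanted tumours. Ubd, an interferon-γ-induced ubiquitin-like gene, had 0 and 3 UMIs in spontaneous and 1004 and 295 in implanted libraries, a ratio of 315 (108 to 1529). Cd74 (4.68 ± 0.34), Cxcl9 (4.56 ± 0.23), Cxcl10 (3.71 ± 0.44) and Ifi27l2a (3.53 ± 0.47) followed, with adjusted p from 1.24e-06 to 0.00100. Ifi27l2a stood higher in the lymphatic than in the other Kcne3 Ptn cells and was not called without them (adjusted p = 0.777). Of the type I interferon list 20 of 28 and of the interferon-γ list 20 of 23 were higher and 0 lower. These were 18 and 20 without the lymphatic cells, with Irf9 (0.0545) and Dhx58 (0.0729) not called, and without cells that held 2 markers of another type 17 and 21, with Oasl1 (0.337), Irf9 (0.0926) and Dhx58 (0.0870) not called. The calls for Oasl1, Cmpk2, Irf9, Dhx58, Tap1, Gbp5 and Irgm2 were lost without at least 1 single library (adjusted p of up to 0.471). Apoe, an apolipoprotein, was lower, at 174 and 142 against 511 and 583 CPM (-1.79 ± 0.28, adjusted p = 0.00343). Also lower were Ctgf (-1.95 ± 0.24, adjusted p = 6.21e-04) and the small heat shock gene Hspb1 (-1.40 ± 0.21, adjusted p = 0.00254). Ivns1abp (-1.64) was lost without spontaneous PBS 2 (0.0965) or implanted PBS 2 (0.0893), and Itih5 (-2.50) without spontaneous PBS 1 (0.0650), spontaneous PBS 2 (0.327), implanted PBS 1 (0.202) or implanted PBS 2 (0.208) and without the lymphatic cells (0.0550). These libraries are also the PBS side of the 2 responses above. Without implanted PBS 1 the number of calls was 79, and it was 239 and 237 without implanted cGAMP 1 and 2, which enter the fit through the shared spread.

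After cGAMP 327 genes differed between the models (4.69%), 127 higher (1.82%) and 200 lower (2.87%) in implanted tumours, with 63.7% of 342 calls higher after median-of-ratios scaling against 38.8% before it. Ms4a6d was higher in implanted tumours, at 466 and 634 against 71.5 and 50.4 CPM (3.16 ± 0.23, adjusted p = 6.27e-05). Fn1, the fibronectin gene, was also higher (199 and 233 against 34.1 and 52.0 CPM, 2.32 ± 0.33, adjusted p = 0.00338). Nts, Serpina3g and Slfn4 were also higher, each called under 12 of 18 alternatives and lost without spontaneous cGAMP 1 (0.154) for Nts, spontaneous cGAMP 1 (0.155) or implanted cGAMP 2 (0.0691) for Serpina3g and spontaneous cGAMP 1 (0.209), spontaneous cGAMP 2 (0.0835), implanted cGAMP 1 (0.128) or implanted cGAMP 2 (0.191) for Slfn4. Nts was also lost without the lymphatic cells (0.101), and Nts (0.0916) and Serpina3g (0.0620) without cells that held 2 markers of another type. Rbp7 was lower (228 and 117 against 1105 and 879 CPM, -2.58 ± 0.25, adjusted p = 4.45e-04). Lower too were Apoe (-2.25 ± 0.28, adjusted p = 0.00237) and the inducible chaperone Hspa1a (-2.24 ± 0.32, adjusted p = 0.00338). Of 6 heat shock genes 4 were lower and 0 higher, of which Dnajb1 and Hspb1 lost the call without at least 1 single library (adjusted p of up to 0.233). Dnajb1 was also lost without cells that held 2 markers of another type (0.104). The pericyte gene Rgs5 and the smooth muscle actin gene Acta2 were lower (-4.00 ± 0.89 and -3.38 ± 0.77), beside the higher mural sum of the spontaneous cGAMP libraries, and 0 of 8 mural genes passed without the cells that held 2 markers of another type. Without those cells 112 genes differed in all. Without spontaneous cGAMP 1 the number was 50 and without spontaneous cGAMP 2 it was 97. Rgs5 was lost without spontaneous cGAMP 1 (0.185), spontaneous cGAMP 2 (0.0878) or implanted cGAMP 2 (0.109) and Acta2 without spontaneous cGAMP 1 (0.240) or implanted cGAMP 2 (0.115). Of the interferon lists, 2 of 28 type I (Isg15 and Rsad2) and 3 of 23 interferon-γ genes (Cd74, H2-K1 and B2m) were higher in implanted tumours and 0 lower. The calls for Isg15, Rsad2, Cd74, H2-K1 and B2m were lost without at least 1 single library (adjusted p of up to 0.256). There were 5 type I and 10 interferon-γ genes higher without the lymphatic cells, and without cells that held 2 markers of another type 1 and 0 were, with Isg15 (0.0942), Cd74 (0.148), H2-K1 (0.118) and B2m (0.0911) not called.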

How the data were processed

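Live CD31+ tumour ECs were profiled with a 10x Genomics 3' kit in 8 libraries. Per the labels the authors used Cell Ranger 3.0.0 and Seurat 3.1.1 with build mm10, and per the methods removed cells with few genes or many mitochondrial UMIs and genes in few cells. The deposited values are natural log values, ln(1 + UMIs scaled to a fixed total per cell), from which whole UMIs were recovered in 100% of values at a tolerance of 0.01. How the deposited cells were chosen was not settled. Members were found by the rule, and their CPM averaged per library. limma 3.58.1 (R 4.3.3), with a trend, was fitted to log2(CPM + 1) of all 8 libraries for 6994 genes at 20 CPM or more in at least 2 libraries, with Benjamini-Hochberg adjustment over all of them. A pseudocount understates changes of low genes. The 26 genes of the rule, 18 of them tested, are not reported as tests, which leaves 6976. Python 3.11.15, numpy 2.4.6, pandas 2.3.3 and scipy 1.17.1 were used for the rest. The fit was tested on simulated data.

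Named genes were, in each cGAMP comparison, the 8 largest changes each way among called genes at a mean of 50 CPM or more with no overlap between groups, 5 each way elsewhere, the 2 largest changes of each gene list, and against other ECs the 15 highest and 10 lowest with 1 sign in all 8 libraries. Members and lists were chosen with earlier results of these data known. Other genes are named where a list holds few calls, after their values were seen, and some genes that these rules name are not reported here. Alternatives were another pseudocount, no filter, median-of-ratios scaling, summed UMIs, 4 markers, 500 genes, thinning to 3000 UMIs, no cells over 2 times the median UMIs, a replicate block and each library left out. Leaving out lymphatic members or cells with markers of another type, and a crossed block, were chosen after seeing the data. No doublet caller was run, and 84 members exceeded 2 times their library's median UMIs. The methods give 2 mice per group, but the labels tie no library to an animal, so p-values measure the spread between these samples, which may be technical. No column (0) was left unused for want of a sample.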

Additional observations from a re-analysis of the deposited data

Results flagged for a closer look

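The difference between the cGAMP responses of implanted and spontaneous tumours passed the test (limma, adjusted p under 0.05) for 15 genes, and each is given here because the effect of the same treatment differed between the 2 models. The values are log2 differences, implanted minus spontaneous response. Above 0 were Col13a1 (2.25, adjusted p = 0.00159), Ms4a6d (2.01, 0.0262) and Dll4 (0.94, 0.0353). Below 0 were Ifit3 (-3.16, adjusted p = 0.00980), Cxcl9 (-3.05, 0.00278), Cd74 (-3.01, 0.0262), Iigp1 (-2.51, 0.0262), Ifit3b (-2.41, 0.00980), Gm4951 (-2.29, 0.0305) and Rbp7 (-2.27, 0.0262). They were followed by Gbp3 (-1.84, adjusted p = 0.0400), Rsad2 (-1.71, 0.0345), Rtp4 (-1.23, 0.0262), Rflnb (-1.23, 0.0262) and Psmb8 (-1.19, 0.0262). Each of the 12 had the larger response in spontaneous tumours except Rbp7 and Rflnb, with responses of 0.02 and -0.20 in spontaneous and -2.25 and -1.42 in implanted tumours. Without cells that held 2 markers of another type Ms4a6d (0.214), Ifit3b (0.117), Gbp3 (0.0740), Rbp7 (0.0576) and Rflnb (0.220) did not pass. Without the lymphatic cells Gm4951 did not pass (adjusted p = 0.0850) and the other 14 did.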

How the results depend on the processing

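Counts of called genes held within 1.5 times under most alternatives, with these exceptions. Thinned to 3000 UMIs, 196 genes were called in the spontaneous and 396 in the implanted response, 101 between models after PBS and 74 after cGAMP. Without cells holding 2 markers of another type, 700 were called in the implanted response, 28 in the difference of the responses and 112 between models after cGAMP. For the difference of the responses the count was 9 at a pseudocount of 5 CPM, 2 without a filter, 2 on summed UMIs, 36 at 4 markers and 32 without lymphatic cells. Between models after cGAMP it was 142 without a filter and 210 on summed UMIs. With 1 library left out, the counts ranged from 199 to 433 in the spontaneous and 436 to 1200 in the implanted response, 4 to 36 for the difference, 79 to 239 and 50 to 431 between models after PBS and after cGAMP, and 0 to 4 and 0 to 1 for the response against other ECs in spontaneous and implanted tumours. The difference of the responses was lowest without spontaneous cGAMP 1 and highest without implanted cGAMP 1. The cause of these shifts was not tested. The share after cGAMP minus that after PBS ranged from -5.10 to -3.31 points with 1 library left out (exact p = 0.0571, the smallest then possible) and was -4.28 without lymphatic cells (exact p = 0.114).

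Of 376 values of single genes, 321 were called and 168 of these were called under every alternative. At 4 markers, the log2 difference between models after cGAMP turned from 2.31 to -0.0172 for Nts and from -0.61 to 0.44 for Fabp5. The replicate numbers did not pair the libraries (correlations of deviations -0.10 to 0.09). With a replicate block, 314, 1031, 17, 150 and 276 genes were called in the 5 comparisons in the order above, and 0 in both tests against other ECs; with the implanted cGAMP numbers crossed, 996 in the implanted response. With 2 libraries per group, and 68 to 172 cells in each, small changes of low genes were not detectable.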

Other observations

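The 98 cells with Prox1 and another lymphatic gene differed widely from the other 858 Kcne3 Ptn cells in genes outside the lymphatic list. Averaged over libraries, Pard6g, a cell polarity gene, stood at 438 CPM in the lymphatic and 3.34 in the other cells, the transcription factor Tbx1 at 209.7 and 2.33, and the semaphorin Sema3d at 227 and 1.34, each higher in all 8 libraries. Several genes of the capillary cells were nearly lacking in them: Col13a1 stood at 1.83 against 149.8 CPM, Abcc9 at 0.529 against 122, Nrp1 at 14.5 against 483, Esm1 at 4.56 against 125 and Ms4a6d at 5.53 against 211, each lower in all 8 libraries. These values rest on 2 to 21 lymphatic cells per library and are descriptions of cells picked by their RNA.

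Further lists held a few calls between the models, where 2.22% of all genes tested were called after PBS and 4.69% after cGAMP. After PBS, Nrp1 and Dll4 of the 16 VEGF, angiopoietin and Notch genes and Insr of the 9 genes of angiogenic endothelium were lower in implanted tumours, Procr, the endothelial protein C receptor gene, was higher, and Vcam1 was the single NF-κB target that was higher. The calls for Nrp1, Dll4 and Procr were lost without at least 1 single library (adjusted p of up to 0.257). Without the lymphatic cells Nrp1 (0.0729), Dll4 (0.0673) and Procr (0.957) were not called, and without cells that held 2 markers of another type Procr (0.256) was not. After cGAMP, Tnfaip2, Icam1 and Vcam1 of 16 NF-κB targets and the pleiotrophin-binding integrin genes Itgav and Itgb3 were higher in implanted tumours. The basement membrane genes Lama5, Hspg2 and Agrn, the fatty acid-binding protein genes Fabp4 and Fabp5 and Ptgs1 were lower. The calls for Icam1, Vcam1, Itgav, Lama5, Hspg2, Agrn, Fabp4 and Fabp5 were lost without at least 1 single library (adjusted p of up to 0.200). Without the lymphatic cells Hspg2 (0.0524), Icam1 (0.0578), Itgav (0.208) and Vcam1 (0.0650) were not called, and without cells that held 2 markers of another type Agrn (0.111), Fabp4 (0.178), Fabp5 (0.0762), Hspg2 (0.229), Icam1 (0.0996), Itgav (0.118), Lama5 (0.163) and Vcam1 (0.123) were not.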
